A study of Helianthus annuus with 2 samples.

Results

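The regions described here are clusters of closely spaced H3K4me3 peaks in sunflower (Helianthus annuus) seeds harvested at 13 days after anthesis (DAA), the early stage of fatty acid biosynthesis. The rule used the peak positions of that stage: on the 17 chromosomes, intervals separated by a gap of at most 1000 bp were joined into a domain, and domains with 3 or more intervals were kept. This gave 2034 clusters out of 145070 domains (1.40%), and they contained 6434 of the 162824 intervals on the chromosomes (3.95%). There were also 13354 domains with 2 intervals and 129682 with a single one. Because the positions at 13 DAA chose the clusters, their number, length and spacing are a description without a test. The intervals of the late stage, 28 DAA, did not enter the rule.

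Both stages come from ChIP-Seq of developing seeds of CAS-9, a high-oleic sunflower line kept in growth chambers, with an antibody against H3K4me3 and no treatment named for either group. There was 1 library per stage, so no difference between stages has a replicate check, and no test was made across regions, which are not replicates. The lists hold 165079 peaks at 13 DAA and 123464 at 28 DAA, and the published totals carry these stages the other way round, so that 13 DAA and 28 DAA refer below to the labels of the lists. Gene models of this genome version (XRQ, the version of the lists) were not used here, so the clusters are given by position, counted from 1, and the tissue was not checked against marker genes.

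H3K4me3 denotes histone H3 carrying 3 methyl groups on its lysine 4, a mark deposited by SET-domain methyltransferases around the first nucleosomes of transcribed genes. In plants it typically covers the start of a gene and the nucleosomes just downstream, and it is read by proteins that assist the transcription machinery. In a ChIP-Seq list, one such marked stretch can be returned as a single wide peak or as several narrow peaks separated by gaps, according to how the fragments pile up and where the signal crosses the calling limit. For each peak, the peak caller MACS2 gives a summit and a fold enrichment, the fragments piled up at the summit over those expected from the local background. The fold enrichment and p-value of a peak together fix the whole number of fragments behind it, and this could be solved for 100% of both lists. Except where the genome-wide value applied, the background was the count in a window of 10 kb around the summit. It was taken as a count of the ChIP library itself, so that within a cluster it also includes the fragments of the neighbouring peaks.

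Most clusters were small. Of the 2034, 1765 had 3 intervals, 226 had 4 and 31 had 5, while 7 had 6, 3 had 7, and the remaining clusters had 8 and 9. The median length was 1489 bp (quartiles 1147 and 1838 bp, range 582 to 7015 bp), and 348 clusters were longer than 2000 bp. Intervals occupied 50.2% of the summed length of the clusters, and gaps the rest. The median gap was 284 bp (quartiles 140 and 532 bp) and the smallest was 50 bp, which was also the smallest gap between any neighbouring intervals of the list. The limit of 1000 bp cut through a continuous range of gaps. Just inside was a cluster of 3 intervals on chromosome 9 from 113087504 to 113089731, with a gap of 1000 bp, 27 fragments at its strongest summit and 2 intervals at 28 DAA. Just outside were neighbouring domains with 3 intervals in all on chromosome 2 from 136862962 to 136864782, 1001 bp apart, with 22 fragments at the strongest summit and 1 interval at 28 DAA. A largest gap of 901 to 1000 bp was found in 199 clusters, and 175 pairs of smaller domains would have made a cluster with a gap of 1001 to 1100 bp.

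The local background split the clusters into groups of very different size. The smallest background in the list, taken as the genome-wide one, was 2.1 fragments. Relative to it, 1105 clusters had a median background below 2 times, 565 between 2 and 3 times and 255 between 3 and 5 times. Only 16 lay between 5 and 8 times, 10 between 8 and 12 and 17 between 12 and 20, whereas 66 lay between 20 and 40 times. A limit of 10 times, set after the values had been seen, gave 1947 clusters with a low background and 87 with a high background (4.28%). Such a background was found in 0.136% of the domains of any size, in 0.329% of those with 2 intervals and in 0.0517% of those with 1. The clusters therefore held 87 of the 198 domains with a high background.

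**Figure D1:**
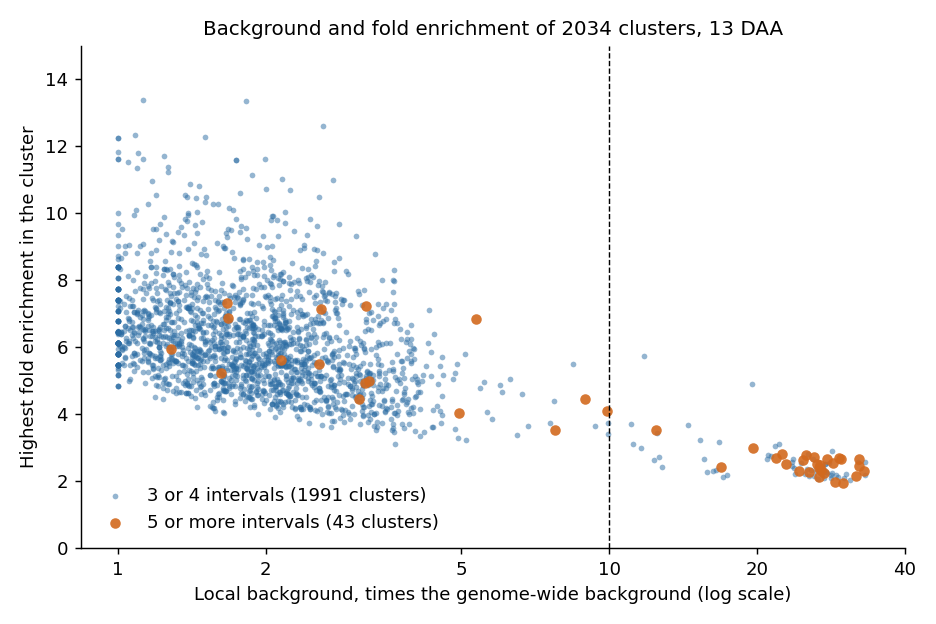
Highest fold enrichment in each of the 2034 clusters at 13 DAA (vertical axis) against the median local background of its intervals, as a multiple of the genome-wide background (horizontal axis, log scale). Each point is a cluster, orange points are the 43 clusters with 5 or more intervals, and the dashed line marks 10 times. Of the orange points, 27 lie to the right of the line, in the group of 87 clusters with low fold enrichments.

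The high-background group included the clusters with the most intervals. Among the 12 clusters with 6 or more intervals, 10 belonged to it, and among the 43 with 5 or more, 27. Their 353 intervals had a median of 113 fragments at the summit (quartiles 101 and 125), against 24 (quartiles 19 and 30) for the 6081 intervals of the other clusters. The background had a median of 53.6 fragments, and their median fold enrichment was 2.11, against 4.92 in the low-background clusters, and 336 of the 353 intervals (95.2%) were below 3. The group was chosen by its background, over which the fold enrichment is taken. More fragments and lower fold enrichments are therefore largely built into these clusters. These clusters were longer as well, with a median of 2353 bp against 1461 bp.

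High-background clusters were concentrated in a few places. Chromosome 12 held 34 of the 87 (39.1%) and chromosome 14 held 12, while chromosome 4 was the only one of the 17 without any. For comparison, chromosomes 12 and 14 held 112 and 124 of the 1947 low-background clusters, and 8218 and 9106 of the 145070 domains. The chromosomes of the high-background domains with 1 or 2 intervals are not given. When clusters less than 1 Mb apart were grouped, 3 stretches held 36 of them. The largest had 15 clusters with 59 intervals on chromosome 12 from 161385311 to 161969914, a span of 585 kb. Another on the same chromosome had 11 clusters with 47 intervals from 158272367 to 158476175, and a stretch on chromosome 14 from 2526222 to 3000066 had 10 clusters with 45 intervals. Within these 3 stretches the background of each cluster stood at 19.6 to 32.3 times the genome-wide one. In total, 61 of the 87 (70.1%, 95% Wilson interval 59.8 to 78.7%) lay in the outermost 10% at either end of a chromosome, against 26.5% (24.6 to 28.5%) of the low-background clusters and 21.0% (20.8 to 21.2%) of the single-interval domains. Chromosome ends were approximated by the last peak of either list, and the Wilson intervals cover counting error only. They treat clusters as independent, although the 87 fall into 37 groups when joined within 1 Mb, so the interval around 70.1% is too narrow.

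The background over most of these clusters was also high in the 28 DAA library. Of the 87 clusters, 81 were overlapped by 222 intervals of 28 DAA, and 204 of these 222 (91.9%) had a background above 10 times that library's own genome-wide value, against 412 of the 2683 intervals over the low-background clusters (15.4%) and 3.18% of all 28 DAA intervals. The median was 25.5 times at 13 DAA and 14.5 times at 28 DAA. For comparison, the median background of the peaks on the mitochondrial sequence was 12.1 times at 13 DAA and 16.0 times at 28 DAA, with median fold enrichments of 2.51 and 2.24, and that on the plastid sequence was 4.16 and 2.85 times. The median background, relative to that of its own library, was thus lower at 28 DAA than at 13 DAA over the high-background clusters and on the plastid sequence, and higher on the mitochondrial sequence. Over all intervals on the chromosomes it was 1.30 times at 13 DAA and 2.77 times at 28 DAA. Because the 13 DAA background chose the high-background clusters, a lower value at 28 DAA is favored by that choice. The medians of the stages also come from different intervals. The low-background and high-background clusters are given separately below.

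The 3 longest clusters, with 9, 8 and 7 intervals, all belonged to the high-background group. On chromosome 14 from 2696713 to 2703075, 9 intervals had fold enrichments of 1.71 to 2.45 and 105 to 147 fragments at 13 DAA, over a background of 32.3 times the genome-wide one. Here 6 intervals at 28 DAA, with fold enrichments of 1.95 to 2.63 and 85 to 97 fragments, overlapped 6 of the 9. The cluster on chromosome 12 from 106524243 to 106531257 had 8 intervals with fold enrichments of 1.77 to 2.24, and 7 intervals at 28 DAA with 1.99 to 2.38. Both clusters thus showed shallow, repeated peaks at both stages. On chromosome 17 from 209007790 to 209013710, 7 intervals had fold enrichments of 1.69 to 2.68, and 4 intervals at 28 DAA had 1.93 to 2.74. The highest number of 28 DAA intervals over any cluster, 8, was found on chromosome 3 from 1320695 to 1325669, where the 5 intervals of 13 DAA had fold enrichments of 2.21 to 2.69 over 21.8 times the genome-wide background. At this place the 28 DAA list divided the same stretch more finely, since the widest 13 DAA interval, of 1395 bp, stood over 28 DAA intervals of 177 to 241 bp.

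**Figure D2:**
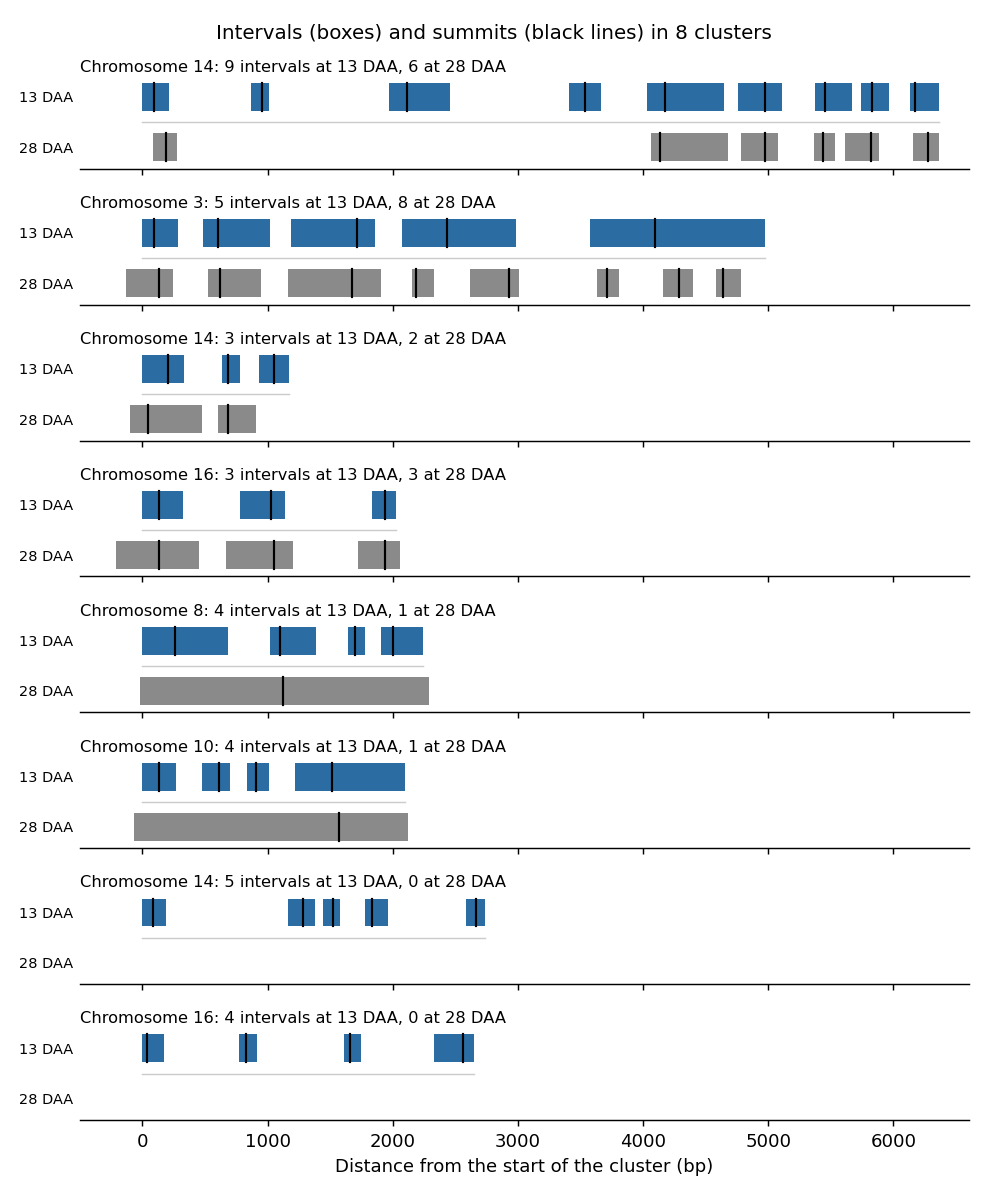
Intervals (boxes) and summits (black lines) of 13 DAA (blue, upper row of each panel) and 28 DAA (gray, lower row) in 8 named clusters, by distance in bp from the start of the cluster. From top to bottom are 2 high-background clusters (9 and 5 intervals at 13 DAA), 2 of the 3 with the highest fold enrichments, 2 joined by 1 interval at 28 DAA and 2 with 0 intervals at 28 DAA.

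The low-background clusters had weak to moderate peaks. Their median fold enrichment of 4.92 (quartiles 4.22 and 5.84) was close to that of single-interval domains, 5.16 (4.49 and 5.99), although their summits had more fragments, 24 against 19. The background differed in the same direction, 1.86 times the genome-wide one in the clusters, 1.47 times in domains of 2 and 1.24 times in single intervals. Only 6.46% of the intervals in these clusters had the genome-wide background itself, against 30.5% of the single intervals. If the background is counted in the ChIP library itself, the 10 kb window holds the neighbouring peaks of the cluster. A higher background is then built into clustered intervals, and the share of it that comes from these neighbours was not computed.

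The 3 clusters with the highest fold enrichments had 1 dominant interval each. They were named for the highest value of any single interval at 13 DAA. A dominant interval, and a lower value at 28 DAA, are therefore favored by that choice. On chromosome 14 from 120702102 to 120703272, the fold enrichments at 13 DAA were 13.4, 5.06 and 6.50, with 44, 16 and 21 fragments. At 28 DAA, 2 intervals with fold enrichments of 10.7 and 5.88 overlapped 2 of these 3. On chromosome 2 from 136078055 to 136079851, fold enrichments of 13.4, 3.94 and 4.57 at 13 DAA stood beside 11.1 and 4.14 at 28 DAA, where the second interval covered both weaker summits. The strong peak thus lay at the same end of the cluster in both lists. The same was seen on chromosome 16 from 23744254 to 23746281, with 12.6, 5.09 and 4.39 at 13 DAA and 10.4, 6.43 and 3.74 at 28 DAA. There the fragments were 80, 32 and 30 at 13 DAA and 225, 141 and 85 at 28 DAA, and the outer summits differed by at most 1 bp between lists and the middle ones by 21 bp.

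Among the 1725 low-background clusters of 3 intervals, the strengths of the intervals were mostly alike. The ratio of the strongest to the weakest summit, in fragments, had a median of 1.38, and it reached 2 in 119 clusters (6.90%). The median number of fragments was 23 for the first, the middle and the last interval. In the 1590 clusters with a single strongest interval, this was the middle one in 36.5%, the first in 29.9% and the last in 33.6%. The middle intervals were slightly wider, with a median of 207 bp against 195 and 198 bp.

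Neighbouring summits in the low-background clusters were most often 300 to 399 bp apart (17.2% of 4134 spacings), and 56.2% of the spacings fell between 200 and 599 bp. The median was 539 bp (quartiles 373 and 792 bp, range 116 to 1758 bp). Spacings under 200 bp numbered 36 (0.871%), in a list whose shortest interval was 134 bp and whose smallest gap was 50 bp, which leaves little room for closer summits. The distribution had a single maximum, with no series of regularly spaced maxima in bins of 100 bp. Bins of this size cannot resolve maxima less than 200 bp apart, so a shorter regular spacing was not tested. Within a cluster the spacing was uneven: the larger of the spacings in clusters of 3 was 1.55 times the smaller at the median (quartiles 1.24 and 2.13), and in 358 clusters (20.8%) both were equal within a factor of 1.2. In the high-background clusters the median spacing was 694 bp (quartiles 481 and 957 bp, n = 266).

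Clusters of 3 or more intervals joined by the same rule in the 28 DAA list, of which there were 8131 in 84732 domains, had a median spacing of 625 bp (quartiles 466 and 845 bp, n = 18039). The maximum was at 400 to 499 bp (16.3%), 1 bin further than in the 13 DAA clusters. The shortest intervals were 134 bp at 13 DAA and 161 bp at 28 DAA and the median widths were 187 and 282 bp, and wider intervals alone keep summits further apart, so the spacings of the lists are set side by side without a comparison of the stages.

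**Figure D3:**
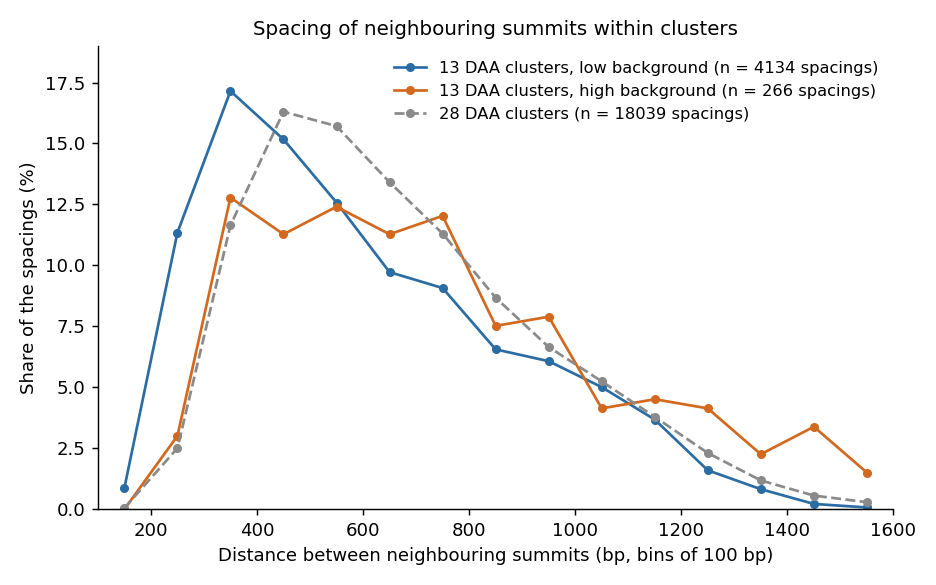
Share of the distances between neighbouring summits (vertical axis, %) in bins of 100 bp (horizontal axis) for 13 DAA clusters with low background (blue, 4134 spacings), 13 DAA clusters with high background (orange, 266) and 28 DAA clusters (gray, dashed, 18039). The blue line has its maximum at 300 to 399 bp and the gray line at 400 to 499 bp, and spacings of 1600 bp and more (3, 5 and 70) are not drawn.

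Of the 2034 clusters, 1560 (76.7%, 74.8 to 78.5%) were overlapped by at least 1 interval of 28 DAA, whereas 25.5% of the domains of any size were. The share increased with the number of intervals, from 21.8% (21.6 to 22.0%) for 1 interval and 53.4% (52.5 to 54.2%) for 2 to 75.0% (72.9 to 76.9%) for 3 and 86.3% (81.2 to 90.2%) for 4. Of the 43 clusters with 5 or more intervals, 1 was not overlapped. Clusters were longer and so offered more room for an overlap, and shares at similar length are given below. Of the 6434 intervals in clusters, 3889 (60.4%, 59.2 to 61.6%) were themselves overlapped at 28 DAA, against 27.1% of all 13 DAA intervals, 44.6% of those in domains of 2 and 21.8% of those alone. Without the high-background clusters the shares were 76.0% (74.0 to 77.8%) of clusters and 60.4% of intervals.

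Stronger domains were overlapped more often at every size, and the clusters held stronger summits. Therefore the shares were also compared at similar numbers of fragments at the strongest summit, for low-background domains. With 20 to 24 fragments, 59.3% of 430 clusters (54.6 to 63.8%) were overlapped, 44.1% of domains with 2 intervals (42.5 to 45.6%) and 21.3% of those with 1 (20.9 to 21.7%). With 25 to 34 fragments the shares were 80.9%, 66.1% and 39.0%. From 35 to 49 fragments they were 91.8% (88.8 to 94.0%) of the clusters, 90.9% (89.4 to 92.2%) of the domains with 2 intervals and 77.0% of single ones. From 50 fragments upwards, 133 of the 134 clusters were overlapped, and so were 98.5% of the domains with 2 intervals and 96.3% of single ones. Of these 5 classes, clusters and single intervals were thus furthest apart at 25 to 34 fragments and closest at 50 or more. For intervals taken one by one and grouped by their own fragments, the shares at 20 to 24 fragments were 56.4% in clusters, 42.0% in domains of 2 and 21.3% alone, whereas at 50 or more they were 92.2% (87.3 to 95.3%), 97.6% and 96.3% (94.7 to 97.4%), so that the order by size was not kept.

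**Figure D4:**
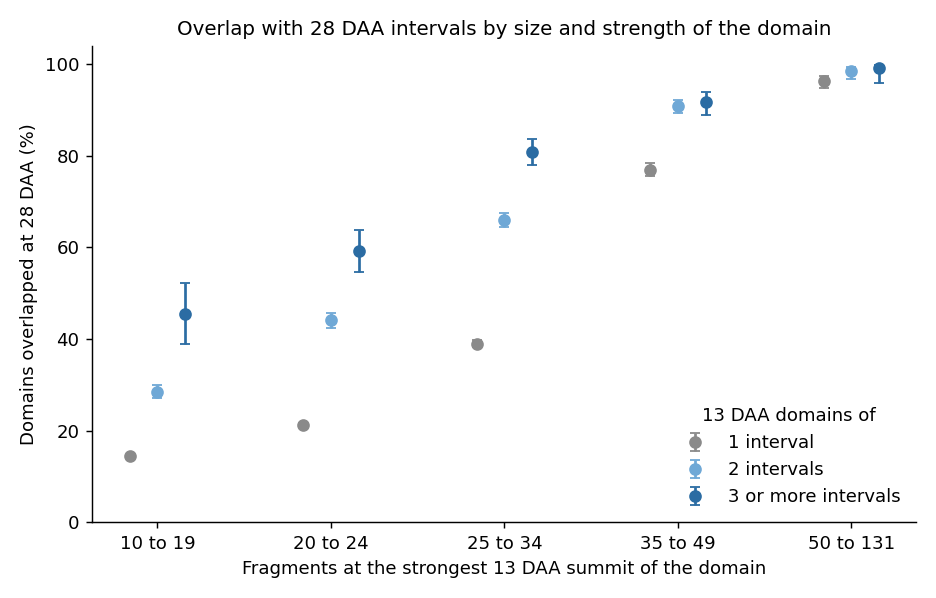
Share of low-background 13 DAA domains overlapped by at least 1 interval of 28 DAA (vertical axis, %) by the number of fragments at the strongest summit of the domain (horizontal axis, 5 classes), for domains of 1 (gray), 2 (light blue) and 3 or more intervals (dark blue). Points are shares and bars are 95% Wilson intervals for counting error. At 20 to 24 fragments the shares are 21.3%, 44.1% and 59.3%, and at 50 fragments or more they are 96.3%, 98.5% and 99.3%.

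At equal length the order was different. Among low-background domains of 1000 to 1499 bp, 72.8% of 754 clusters (69.5 to 75.9%) were overlapped and 62.5% of 4224 domains with 2 intervals (61.0 to 63.9%), but 129 of the 142 single intervals of that length (90.8%, 85.0 to 94.6%). Between 500 and 999 bp the shares were 55.5% of clusters, 50.7% of domains with 2 intervals and 73.6% of single intervals. From 1500 to 1999 bp the clusters (82.1%, 78.9 to 84.9%) were also below the domains with 2 intervals (90.3%, 86.8 to 92.9%). A single interval of 500 to 1499 bp was thus overlapped at 28 DAA more often than a cluster of the same length. The fragments were not matched within these length classes.

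Since the rule asked for 3 or more intervals at 13 DAA and for none at 28 DAA, a lower number of intervals at 28 DAA is largely fixed by the choice of the clusters, and the numbers are a description. Among the 1947 low-background clusters, 468 had 0 intervals at 28 DAA, 590 had 1, 613 had 2, 239 had 3, 35 had 4 and 2 had 5. Of the 1479 that were overlapped, 1250 had fewer intervals than at 13 DAA, 204 the same number and 25 more. Of the 81 overlapped high-background clusters, 63 had fewer, 13 the same number and 5 more. Over the 36981 overlapped domains of any size, of which most have 1 interval and cannot have fewer, 5658 had fewer, 30922 the same number and 401 more. The 28 DAA intervals covered a median of 62.3% of the span of the low-background clusters that they overlapped, and 38.4% in the high-background group.

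**Figure D5:**
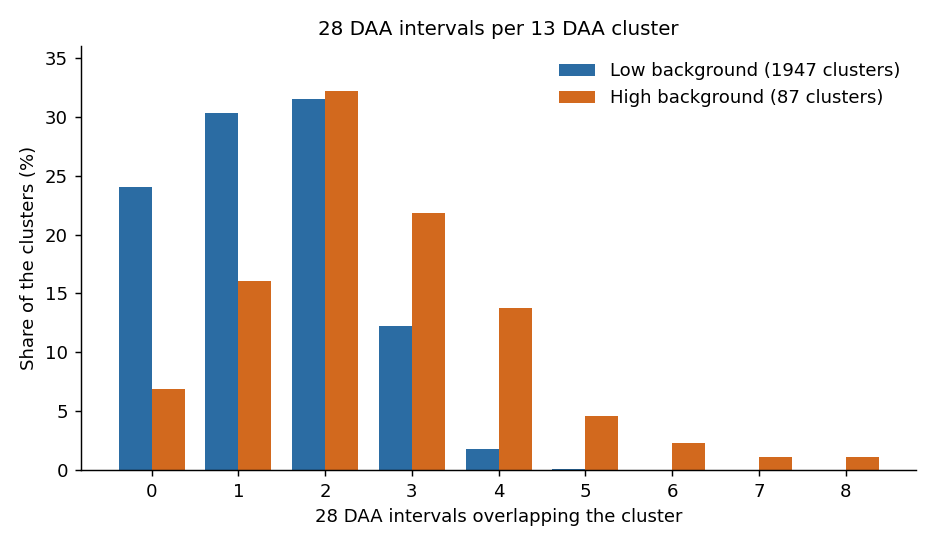
Share of the 13 DAA clusters (vertical axis, %) by the number of 28 DAA intervals that overlap them (horizontal axis), for 1947 clusters with low background (blue) and 87 with high background (orange). In the low-background group 0 to 2 intervals make up most of the clusters (24.0%, 30.3% and 31.5%), and numbers of 6 to 8 occur in the high-background group.

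In 224 clusters, all with a low background (11.5%, 10.2 to 13.0%), a single 28 DAA interval overlapped every interval of the cluster by at least 1 bp. Such joining was found in 15.8% of all domains with 2 or more intervals and in 16.5% of those with 2. In the high-background group it was found in 0 of 87 clusters, which allows a share of up to 4.23% (Wilson). The 224 joining intervals had a median width of 1418 bp (quartiles 1228 and 1718 bp), and 209 of them (93.3%) were wider than 1000 bp, against 3.49% of all 28 DAA intervals, as the length of what they span requires. Their summits had a median of 148.5 fragments (quartiles 129 and 168) and a fold enrichment of 7.05, against 43 fragments and 5.91 for all 28 DAA intervals. These values are not set against other 28 DAA intervals of similar width, so they are not shown to be particular to the joining intervals. The joined clusters were shorter at 13 DAA, with a median of 1190 bp against 1531 bp for all overlapped low-background clusters, and their strongest summits had a median of 34 fragments against 30.

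The longest joined cluster, on chromosome 8 from 12263521 to 12265766, had 4 intervals at 13 DAA with 53, 45, 38 and 35 fragments and fold enrichments of 5.06, 4.17, 3.50 and 3.20. It lay under a 28 DAA interval of 2308 bp with 147 fragments and a fold enrichment of 5.16, whose summit was 21 bp from that of the second 13 DAA interval. On chromosome 12 from 38958026 to 38960254, the 13 DAA intervals had fold enrichments of 5.37, 6.72 and 3.85, and the joining interval of 1929 bp had 5.16 with 185 fragments, beside a smaller one of 217 bp with 2.23 that held the first 13 DAA summit. In both cases the joining interval had more fragments than any interval of the cluster at 13 DAA, while its fold enrichment was close to or within their range. On chromosome 10 from 166874795 to 166876892, 4 intervals with fold enrichments of 5.83, 4.76, 4.62 and 6.32 and 28 to 39 fragments lay under an interval of 2192 bp with 5.51 and 201 fragments. The background differed in the same direction, from 2.53 times the genome-wide one at 13 DAA to 15.5 times at 28 DAA.

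The 28 DAA intervals over the low-background clusters were strong within their own list. Their 2683 summits had a median of 88 fragments (quartiles 43 and 141), against 83 over domains of 2, 54 over single-interval domains and 43 for all 28 DAA intervals. The fold enrichment did not follow the same order, with medians of 5.59, 6.38, 6.84 and 5.91, and the local background was 6.38, 5.05, 3.07 and 2.77 times the genome-wide one of 28 DAA. Thus the intervals over clusters had the most fragments and the lowest fold enrichment of these 4 sets, over the highest background. Widths over 1000 bp were found in 17.1% of them and in 3.49% of all 28 DAA intervals.

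Over the low-background clusters, most 28 DAA summits fell inside a 13 DAA interval. Of the 2683 summits, 2361 (88.0%) lay inside a 13 DAA interval of the cluster, 257 (9.58%) in a gap and 65 (2.42%) outside the cluster. The 13 DAA intervals made up 49.3% of the length of all low-background clusters, overlapped or not, and the share in the overlapped ones alone was not computed. The distance from the 2618 summits inside a cluster to the nearest 13 DAA summit had a median of 35 bp (quartiles 16 and 78 bp), and 1624 (62.0%) were within 50 bp. Such shares and distances, and the counts that follow, are not given for domains with 1 or 2 intervals, so they describe these clusters alone. For the outer limits only the direction was counted: in 626 of the 1479 overlapped clusters (42.3%) the 28 DAA intervals reached beyond both ends, in 613 (41.4%) beyond 1 end and in 240 (16.2%) beyond neither. The distances in bp were not computed. Over all intervals on the chromosomes, those of 28 DAA were wider, with a median of 282 bp against 187 bp. In the high-background clusters the 28 DAA intervals had a median of 294 bp, against 317 bp for the 13 DAA intervals.

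Within clusters of 3 intervals, the middle interval was overlapped at 28 DAA in 62.7% of the cases (60.4 to 65.0%), the first in 56.2% (53.9 to 58.6%) and the last in 58.4% (56.1 to 60.7%). All 3 intervals were overlapped in 736 of the 1725 clusters and none in 443. Where 2 were overlapped, they were the first and the middle in 128 clusters, the middle and the last in 152, and the outer ones in 26. Every interval was overlapped in 41.4% of all 2034 clusters, against 36.8% of the domains with 2 or more intervals.

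The 468 low-background clusters with 0 intervals at 28 DAA were the weaker and shorter ones. Their strongest summit had a median of 22 fragments (quartiles 20 and 28), against 30 (25 and 39) in the 1479 overlapped ones, and their median length was 1198 bp against 1531 bp. The nearest 28 DAA interval was a median of 11112 bp away, within 1000 bp in 34 clusters (7.26%) and beyond 10 kb in 249 (53.2%). Such distances are not given for smaller domains without an overlap, so they are not shown to be particular to these clusters. The longest of them was on chromosome 14 from 170347823 to 170350559, with 5 intervals of 16 to 21 fragments and fold enrichments of 3.81 to 5.25. On chromosome 16 from 24308333 to 24310980 there were 4 intervals with fold enrichments of 5.58, 4.74, 5.28 and 6.18, and on chromosome 11 from 17180551 to 17183072 there were 4 with 5.40, 6.27, 4.38 and 5.18. No interval of these 3 clusters had more than 25 fragments.

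Clusters of both lists met in a minority of cases. Of the 2034 clusters of 13 DAA, 458 (22.5%) overlapped a cluster of 3 or more intervals of 28 DAA, as did 3.80% of the domains of any size, and 458 of the 8131 clusters of 28 DAA (5.63%) overlapped one of 13 DAA.

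The low-background clusters were spread over all chromosomes, from 68 on chromosome 7 to 145 on chromosome 10. They made up 1.13% of the domains of chromosome 2, the lowest share, and 1.56% of those of chromosome 6, the highest, around a median of 1.34%, and had a density of 0.492 to 0.780 per Mb on the same chromosomes. The share overlapped at 28 DAA ranged from 69.0% on chromosome 1 to 83.2% on chromosome 4. Only 27 of them were followed by another within 10 kb.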

How the data were processed

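H3K4me3 ChIP-Seq peak lists of developing sunflower seeds were analyzed, 1 library per stage, grouped by the stage in the labels. Reads were quality-filtered (FASTX-Toolkit), aligned to the XRQ genome (BWA-MEM), cleared of duplicates (Picard) and used for peak calling (MACS2) by the authors. Whether immunoprecipitations were pooled and whether an input was used are not given in the sources used here. The local background was taken as that of the ChIP library itself, because its counts were whole numbers without scaling, as given below.

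The deposited lists give per peak a fold enrichment (a ratio over the local background), p-values and q-values as −log10, and a score, which is 10 times the −log10 q-value without its decimals, as the authors' peak caller writes it. The largest q-values were 0.000999 and 0.000881. The fragments at each summit, which set the depth behind a value, were solved to within 0.001 of −log10 p, using MACS2's pseudocount of 1. Apart from peaks at the genome-wide background, 100% of the backgrounds were whole numbers in 10 kb within 0.05, with the shortest interval as the fragment length.

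Overlaps needed at least 1 bp. Shares have 95% Wilson intervals, which cover counting error only, as they count regions as independent within 1 library per stage. Reads carry no molecular identifiers. Code was tested on simulated data. The rule for the named clusters was, among all clusters, the 3 with the most intervals, the longest, the highest fold enrichment, the most 28 DAA intervals, the longest joined and the longest without overlap, with ties going to the longer, and a pair at the gap limit. Members and rules were chosen with earlier results of these data known. Alternatives were gaps of 500 and 2000 bp, q-values of at most 1e-05 and 1e-10, at least 4 intervals, all sequences, and other rules for overlap, spacing and joining. The exclusion of high-background clusters was added after seeing the data. The software was matplotlib 3.10.9, pandas 2.3.3, scipy 1.17.1, numpy 2.4.6 and Python 3.11.15. Gene models and sequences were not used.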

Additional observations from a re-analysis of the deposited data

Results flagged for a closer look

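Clusters of 3 or more 13 DAA intervals were also found on sequences outside the 17 chromosomes, which the comparisons above do not use. There were 4 on the plastid sequence, 7 on the mitochondrial sequence and 110 on unplaced sequences. They drew attention because they made up 13.3%, 13.5% and 7.04% of the 30, 52 and 1562 domains there, against 1.40% on the chromosomes. A background above 10 times the genome-wide one was found in 1, 6 and 80 of them. In the 28 DAA list, the same rule gave 3, 6 and 66 clusters, with such a background in 0, 5 and 33.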

How the results depend on the processing

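No result has a replicate check. No paired analysis was possible because each stage had 1 library. Of the comparisons with the settings fixed at the start, 22 stayed within the counting interval of the reported value (or within 1.5 times, for the number of clusters) and 33 moved. Only the overlapped share of clusters minus that of single-interval domains has a direction, and it kept its sign. The comparison at equal length, where the order was different, was not repeated under these settings.

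With a largest gap of 500 bp there were 1124 clusters, with a median length of 1168.5 bp, a spacing of 445 bp and a fold enrichment of 4.75. Of these 74.7% were overlapped, 20.3% joined and 52.9% of the span covered, and the difference from single-interval domains was 51.2 percentage points. With 2000 bp there were 3687 clusters of 2152 bp with a spacing of 734 bp, 5.59% joined and 27.0% covered. Length, spacing and joining depend on the gap by construction.

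Limiting both lists to q-values up to 1e-05 gave a fold enrichment of 4.92, and 79.9% were overlapped, 51.1% covered and the difference was 57.1 points. At 1e-10 only 199 clusters were left, of 1686 bp with a spacing of 644.5 bp and a fold enrichment of 5.76, and 97.5% were overlapped, 16.6% joined and 70.2% covered.

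At least 4 intervals left 269 clusters of 2127 bp with a fold enrichment of 4.40, of which 88.1% were overlapped and 7.06% joined. With all sequences the fold enrichment was 4.75. When 50% of the span had to be covered, 47.1% of the clusters passed and the difference was 26.8 points, and with a 28 DAA summit inside the span it was 56.8 points. Without the high-background clusters, the fold enrichment was 4.92 and 7 other results stayed within their intervals. The depth limits single intervals, with a median of 24 fragments at the summit in clusters.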
